A study of Mus musculus with 26 samples.

Results

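The CpG cytosines at positions 1 to 4 of the CTCF motif were described in the merged CTCF M-ChIP data of mouse embryonic stem cells. A cytosine was taken when it lay within a match of the 19 bp motif MA0139.1 listed for the merged peaks, had at least 5 reads, and fell on 1 of the first 4 bases as counted along the motif strand. This gave 5067 of 35385 measured motif cytosines, in 3023 of 15972 motif matches. The reference sequence held 6855 CpG cytosines at these positions, of which 6759 were listed with at least 1 read and 73.9% had 5 reads or more. The 5067 cytosines carried 58087 reads, with a median of 10 reads and a range of 5 to 79.

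In M-ChIP, chromatin was immunoprecipitated with a CTCF antibody, cut with Tn5 transposase carrying methylated adaptors and then bisulfite converted, so that 1 library reports both binding and methylation. The groups were CTCF M-ChIP (n = 2), the same libraries without conversion (CTCF M-ChIP-NC, n = 2), CTCF ChIP with Nextera adaptors (n = 2), M-ATAC (n = 4), M-ATAC-NC (n = 2) and ATAC (n = 2). All were KH2 embryonic stem cells, a single line grown on irradiated feeders and pre-plated to remove them, with no treatment or genotype difference. The methylation calls came from replicates merged by the authors, so they have no replicate error. Intervals given with them are 95% Wilson intervals that cover counting error only, and SDs over 20 chromosomes describe spread within the merged library. The merged RNA-seq gave 132 to 5394 TPM for all 10 embryonic stem cell markers, while 8 fibroblast markers lay between 0.08 TPM for Lum and 176 TPM for Vim. Any share of feeder DNA in the methylation values was not tested. The gene Ctcf itself was listed at 82.9 TPM.

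CTCF is a zinc finger protein that folds chromatin into loops together with cohesin and shields promoters from distant enhancers. Its motif is read by a row of zinc fingers. Methylation of a CpG inside the motif is known to weaken binding at some loci, most famously at imprinted genes. 2 motif positions, called C2 and C12 in the study, often hold a CpG. Here C2 is the CpG at motif positions 5 and 6, and C12 the CpG at positions 15 and 16. The first 4 positions lie at the edge of the motif, just before C2.

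A CpG is named below by its step, the motif position of its cytosine on the motif strand; its other-strand cytosine lies 1 position further on. Step 0 therefore has its motif-strand cytosine just outside the match and only its other-strand cytosine inside it. The best-scoring match with a measured cytosine of each of the steps 1 to 4 shows where the CpG sits. Capitals mark the CpG, all coordinates are mm10 and all sequences are written 5′ to 3′ along the motif strand.
Step 1, chr5:37291165-37291183, minus strand, exon of Crmp1: CGgccaccagggggcgcca
Step 2, chr3:33918956-33918974, minus strand, intergenic: cCGccaccagggggcgcta
Step 3, chr9:105693957-105693975, plus strand, intron of Col6a6: ccCGcagcagggggcgccc
Step 4, chr2:118976454-118976472, minus strand, intergenic: tcaCGagcagggggcgctc
The motif scores of these matches were 27.1, 25.6, 15.7 and 8.26, so the best matches with a CpG at steps 3 and 4 scored lower. The step 1 cytosine was methylated in 5 of 14 reads. The step 2, 3 and 4 cytosines had 0 methylated reads of 14, 9 and 8, which allows up to 21.4%, 33.3% and 37.5%. Here and below, the limit of a count of 0 is given as 3 counts of the total and not as a Wilson bound.

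Steps 1 and 2 held nearly all members. Step 1 had 2500 cytosines, step 2 had 2225, step 0 had 297, step 3 had 44 and step 4 had 1 on the motif strand. The median motif score was 18.1 at step 1 and 15.4 at step 2. At step 1 the most frequent first 4 bases were CGgc, with 1135 cytosines, and at step 2 they were cCGc, with 608.

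Most of these cytosines were unmethylated. Of the 5067, 3293 had 0 methylated reads, which is 65.0%. In all, 4080 were low (under 20%), 895 were intermediate and 92 were high (over 80%). Low cytosines made up 80.5% of members against 77.5% of all measured motif cytosines, intermediate ones 17.7% against 20.4%, and high ones 1.82% against 2.13%. The mean methylation level was 10.9% (SD over chromosomes 1.99), and 8.84% of reads were methylated (interval 8.61 to 9.07). With 5 reads a cytosine moves in steps of 20%, so 1 methylated read already takes it out of the low class. The 523 cytosines with exactly 5 reads had a mean of 21.4%, and the 536 with 4 reads, just outside the limit, 19.6%.

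The steps differed in level. By reads, step 0 was methylated at 13.2% (12.1 to 14.4), step 1 at 8.21% (7.90 to 8.53), step 2 at 8.97% (8.63 to 9.33) and step 3 at 11.2% (8.59 to 14.4). The intervals of step 0 and of steps 1 and 2 did not overlap, and step 1 lay just below step 2. That of step 3, with 447 reads, overlapped those of steps 0 and 2 but not that of step 1. As means over cytosines, steps 0, 1 and 2 had 16.9%, 9.93% and 11.2%, with SDs over chromosomes of 7.92, 2.55 and 3.65. Outside repeat sequence, described below, step 0 lay close to step 2. The means there were 9.20% and 9.13%, and the shares of methylated reads 6.95% and 7.21%. Step 1 was lower there, with a mean of 7.52% and 6.14% of reads, though the read intervals of steps 0 and 1 overlapped. High cytosines were 54 at step 1 (2.16%), 26 at step 2 (1.17%), 12 at step 0 (4.04%) and 0 of 44 at step 3. The share over all measured motif cytosines was 2.13%, from which 0 of 44 cannot be told apart.

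**Figure D1:**
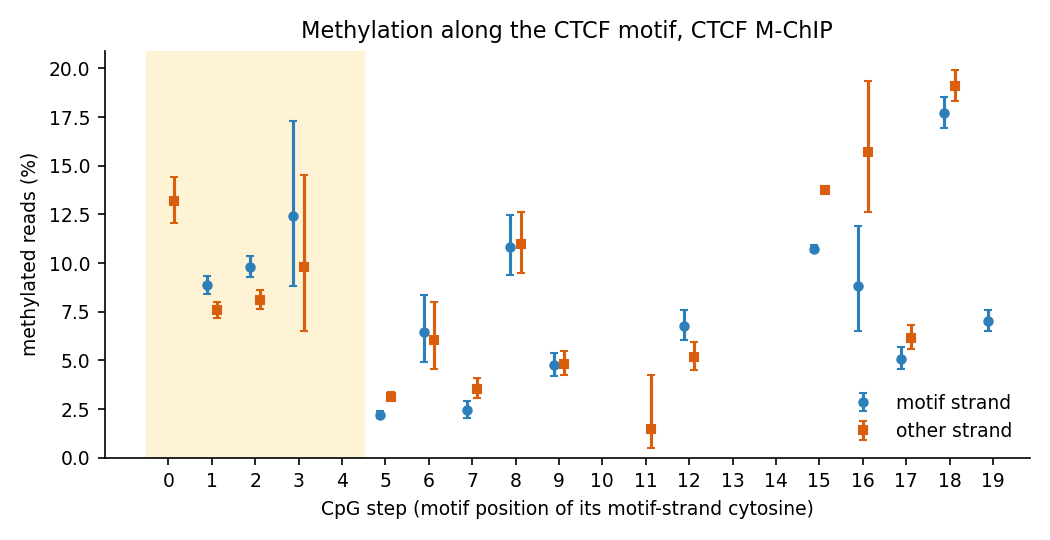
Share of methylated reads in percent (y axis) at each CpG step of the motif (x axis) in merged CTCF M-ChIP, for steps with at least 20 cytosines on a strand; bars are 95% Wilson intervals and the shaded area holds the steps that reach positions 1 to 4. Steps 1 and 2 lie between 7.58% and 9.82%, above step 5 (C2) at 2.22% and 3.14% and below step 15 (C12) at 10.7% and 13.8%.

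Positions 1 to 4 lay between C2 and C12. The mean level was 3.18% at C2 (3579 cytosines) and 14.9% at C12 (20329 cytosines). Positions 1 to 4 exceeded C2 by 7.73 percentage points (SD over chromosomes 2.14), on 20 of 20 chromosomes. The difference from C12 was -3.99 points (SD 2.68), below 0 on 18 of 20 chromosomes. C12 had a mean of 12.9% on the motif strand and 16.9% on the other. On the motif strand alone the difference was -1.76 points from C12 and 8.76 points from C2. Without replicates these differences have no test. The sets are not separate either, because motif matches overlap: 930 members also lay in another match, 749 of them at its C12 and 90 at its C2.

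The differences were smaller when both CpGs were read in the same motif. In 1238 pairs of a CpG at steps 0 to 4 and C12 of the same match, strands pooled, the means were 8.06% and 7.76%. The difference was 0.30 points (SD over chromosomes 1.27), above 0 on 11 of 20 chromosomes and thus within that spread. Where matches overlap, the same CpGs can enter again with their roles exchanged, and such pairs cancel in the difference. With cytosines in no other match the difference was 0.330 points. In 441 pairs with C2 the means were 2.37% and 1.20%, a difference of 1.17 points (SD 1.15), above 0 on 16 of 20 chromosomes. Motifs that hold both CpGs are a subset, and the gap to C2 was smaller in them than over all cytosines.

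Members in motifs with more CpGs were less methylated. Members that were the only CpG of their motif had a mean of 15.3%, those with 1 other CpG 10.1%, those with 2 others 3.14% and those in motifs of 4 or more CpGs 1.52%. Where the motif also held C2 the mean was 2.26% over 713 cytosines, and where it did not, 12.3% over 4354. C12 was lower in such motifs too: its mean was 7.34% in motifs with a CpG at positions 1 to 4 and 15.9% in motifs without one.

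Both CpGs of a motif were usually in the same state. Of the 1238 pairs with C12, 1034 had both under 20% and 127 both at 20% or more, while in 49 only the first CpG and in 28 only C12 reached 20%. Across these pairs, some of them the same CpGs with roles exchanged, Spearman's rho was 0.676. The CpGs of a pair share a library, a peak and a motif. The Wilson intervals of the CpGs were apart in 8 pairs: positions 1 to 4 were higher in 5 and C12 in 3. The pairs furthest apart in each direction are shown because they carry 2 states in 1 motif, with both CpGs, or the G of step 0, in capitals.
Mosmo intron, chr7:120690816-120690834, plus strand: CGgccagaagagggCGtgg
Iqce exon, chr5:140684706-140684724, minus strand: CGcacactagggggCGctt
Crmp1 exon, chr5:37291165-37291183, minus strand: CGgccaccagggggCGcca
Srr intron, chr11:74924329-74924347, plus strand: GcaccagaagagggCGcca
Intergenic near Apol7c, chr15:77523375-77523393, plus strand: cCGcctgcagagggCGgta
Intergenic near Olfr650-ps1, chr7:104200035-104200053, plus strand: cCGtccaaagggggCGgtg

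In the Mosmo motif the step 1 CpG was methylated in 20 of 21 reads (95.2%, 77.3 to 99.2) and C12 in 7 of 25 (28.0%, 14.3 to 47.6). In the Iqce motif the values were 23 of 39 reads (59.0%) and 3 of 34 (8.82%). In the Crmp1 motif, the best match of all members, they were 8 of 22 (36.4%) and 0 of 25, which allows up to 12%. The opposite state was seen in the Srr motif, with 1 of 9 reads at step 0 and 7 of 8 at C12 (87.5%). Near Apol7c the step 2 CpG had 1 of 15 methylated reads and C12 had 11 of 19, at a site whose 31 bp context occurs at 2 places in the reference. Near Olfr650-ps1 they had 2 of 58 and 13 of 54. All 6 were chosen as extremes among 1238 pairs.

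**Figure D2:**
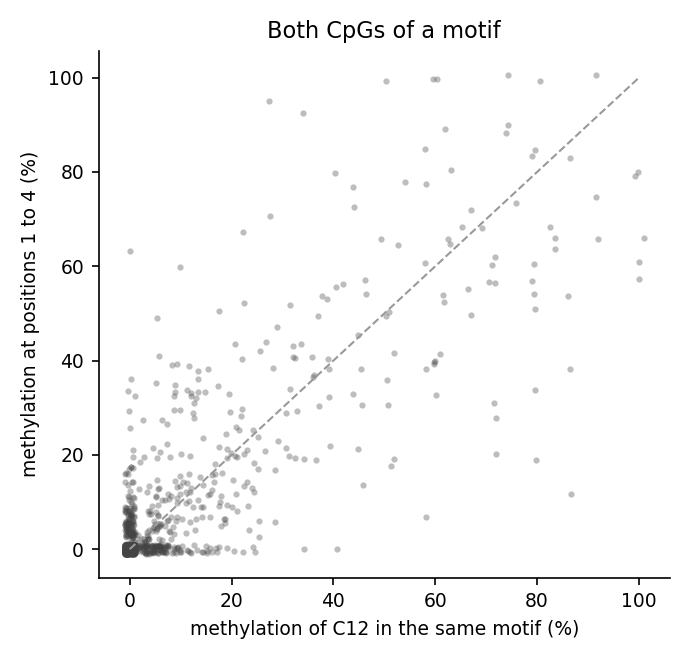
Methylation in percent of the CpG at steps 0 to 4 (y axis) against C12 of the same motif (x axis), 1 point for each of 1238 pairs, shifted at random by up to 1 percentage point so that equal values show; the dashed line marks equality. Most points lie at the lower left, where 1034 pairs have both CpGs under 20%.

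The strands of a CpG were also alike. In 2016 CpGs of steps 1 to 4 with 5 reads on each strand, the mean was 9.64% on the motif strand and 8.54% on the other. The difference of 1.10 points was as large as its SD over chromosomes (1.10) and above 0 on 17 of 20. Both strands fell in the same class in 88.7% of these CpGs, and in 0 of them was 1 strand low and the other high.

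Sequence masked as repeat in the reference stood apart. Soft-masked bases are those the assembly writes in lower case because they belong to interspersed or simple repeats. Members in motifs with most bases soft-masked numbered 662, 13.1% of all, and had a mean methylation of 27.9% (SD over chromosomes 7.60), against 8.36% (SD 2.25) for the other 4405. The mean was higher in soft-masked motifs on 20 of 20 chromosomes, by 3.34 to 34.8 points. They held 49 of the 92 high and 266 of the 895 intermediate cytosines. Over all measured motif cytosines, soft-masked ones made up 17.3% and held 447 of the 752 high and 3070 of the 7207 intermediate ones. The same split of the mean was seen at C12, with 32.9% against 9.54%, and at C2, with 10.2% against 3.03%.

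The split was also seen where the sequence is unique and at higher coverage. The 561 soft-masked members whose 31 bp context occurs once in the reference had a mean of 29.0%. Among members with 10 reads or more, soft-masked motifs had 20.9% and the others 5.50%. Outside M-ATAC peaks the means were 31.01% and 13.5%, and with 0 to 2 CpGs in the window of 100 bp on either side of the motif's middle they were 35.3% and 17.2%. Without soft-masked motifs the difference from C12 became -1.18 points and that from C2 5.32 points.

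**Figure D3:**
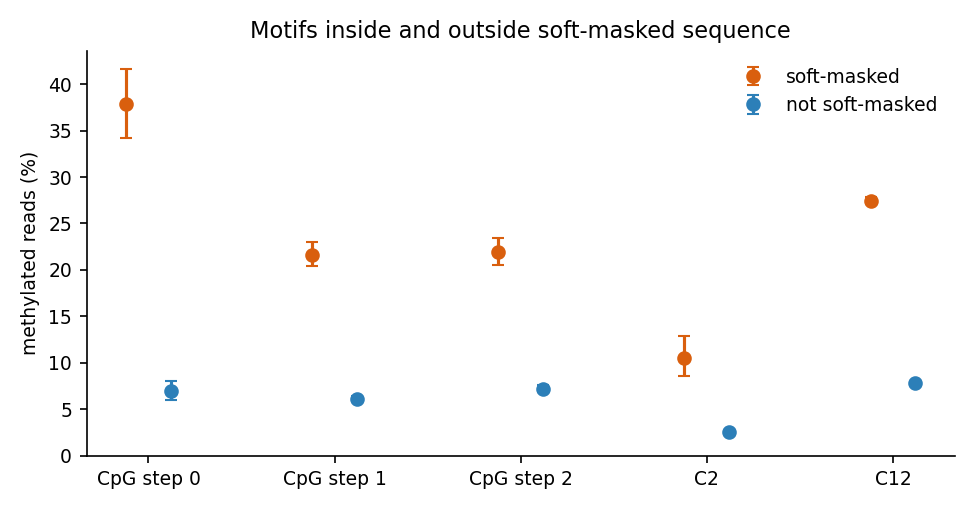
Share of methylated reads in percent (y axis) in motifs inside (orange) and outside (blue) soft-masked sequence, for CpG steps 0 to 2, C2 and C12 (x axis); bars are 95% Wilson intervals, and where none shows it is smaller than the point. At each step the soft-masked motifs are higher, from 10.5% at C2 to 37.8% at step 0, against 2.53% to 7.85% outside.

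Single sequences recurred among the members. Of 2766 different 19 bp matches, 111 were found in 2 or more motifs. The most frequent are shown with the member CpG, or the G of step 0, in capitals, since copies of 1 sequence lie at many places and the sequences differ in level.
In 36 motifs: cCGccactagatggtgcta
In 20 motifs: aCGccagaagagggcatca
In 13 motifs: CGgccagaagagggcatca
In 9 motifs: aCGccagaagagggcacca
In 9 other motifs: CGgccagaagagggcacca
In 9 further motifs: Gtgccagaagagggcatca
All copies of these were soft-masked. The first was methylated at 8.06% of reads (6.25 to 10.4), and 33 of its 36 motifs had a 31 bp context found at several places, so its values cannot be assigned to single copies with certainty. The second reached 31.5% (26.7 to 36.9), the third 30.7% (25.5 to 36.4), the fourth 15.5% (10.6 to 22.2), the fifth 24.8% (19.4 to 31.1) and the last 32.9% (23.0 to 44.5). These 5 share the run ccagaagagggca after their first bases, and only 7 of their 60 motifs had such a repeated context. The median merged peak fold was 14.1 for the first sequence and 8.64 to 11.9 for the others.

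The first bases of the motif went with the level. At step 2, aCGc was methylated at 18.7% of reads (17.3 to 20.1), and cCGc, gCGc and tCGc at 8.35%, 7.06% and 6.83%. Of the 263 aCGc cytosines 45.6% were soft-masked. As means over cytosines, aCGc had 23.0% in all and 14.3% in the 143 outside soft-masked sequence. The starts cCGc, gCGc and tCGc had 10.2%, 8.39% and 9.23% in all, and 9.99%, 7.53% and 8.66% outside it. The median number of CpGs in the window around the motif was 3 for aCGc and 6, 5 and 5 for these starts. Which of these goes with the level of aCGc was not tested. At step 0, Gcac was at 30.9% (26.2 to 35.98) and Gtgc at 18.8%, with Gggc at 9.18%. Outside soft-masked sequence those means were 11.2%, 5.77% and 5.60%, over 14, 19 and 38 cytosines. At step 1, CGgc was at 9.08% (8.61 to 9.57) and CGac, CGtc and CGcc at 5.94% to 6.35%. The 4 starts of step 1 had means over cytosines of 6.75% to 11.3% in all and of 5.13% to 7.21% outside soft-masked sequence.

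Methylated members sat in weaker peaks. The peak fold is the enrichment over local background that MACS2 gives at the summit nearest the motif in the merged CTCF M-ChIP. Its median was 12.4 (interval of the median 12.3 to 12.5) for low, 10.4 (10.2 to 10.8) for intermediate and 9.57 (8.75 to 10.3) for high cytosines. Over all measured motif cytosines the medians were much the same, with 12.2, 10.3 and 9.34. The peak score, which is 10 times the -log10 q, had medians of 236, 167 and 137 for low, intermediate and high members. Across the 5067 cytosines, which share libraries and often a peak, Spearman's rho of methylation was -0.132 with fold and -0.168 with peak score. For C12 the rho with fold was -0.161. For C2, where 94.6% of cytosines were low, it was -0.0035, while the median fold was 11.8 (11.7 to 12.1) for low and 9.60 (8.99 to 9.89) for intermediate C2 cytosines.

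The relation to fold was weaker among cytosines with more reads. The reads at a cytosine and the peak fold come from the same library and were themselves related, with a rho of 0.610. Within 5 to 9 reads the median fold was 10.2 for low and 9.17 for the other members, within 10 to 14 reads 12.7 and 12.7, and at 15 reads or more 16.3 and 16.3. The rho with fold was -0.155, -0.0182 and -0.0309 in these bins, and that with peak score -0.188, -0.0858 and -0.0762. Over all members with at least 10 reads the low minus other difference in median fold was 0.566. Methylation itself was 14.2% of reads at 5 to 9 reads, 8.68% at 10 to 14 and 5.36% at 15 or more. Whether fewer reads or weaker binding goes with methylation cannot be told apart here, since both are measured by the same reads.

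The relation of methylation to the motif score was smaller still. Its rho was -0.0539, and the medians were 16.98 for low, 15.6 for intermediate and 16.6 for high cytosines. In the lowest, middle and highest tertile of motif scores the mean levels were 11.1%, 13.3% and 8.37%, which is no steady order. The 3 motifs of highest score with a member at 20% or more were the Crmp1 motif above and the following.
Intergenic near Spry2, chr14:105903010-105903028, minus strand, score 25.4: CGgccagcagagggcgcca
Exon of Epas1, chr17:86832758-86832776, minus strand, score 25.05: tCGccagcagggggcgctg
The first was methylated in 7 of 9 reads (77.8%, 45.3 to 93.7) and the second in 3 of 11 (27.3%, 9.75 to 56.6), so methylated reads also occurred in close matches to the motif. The Spry2 motif was soft-masked.

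**Figure D4:**
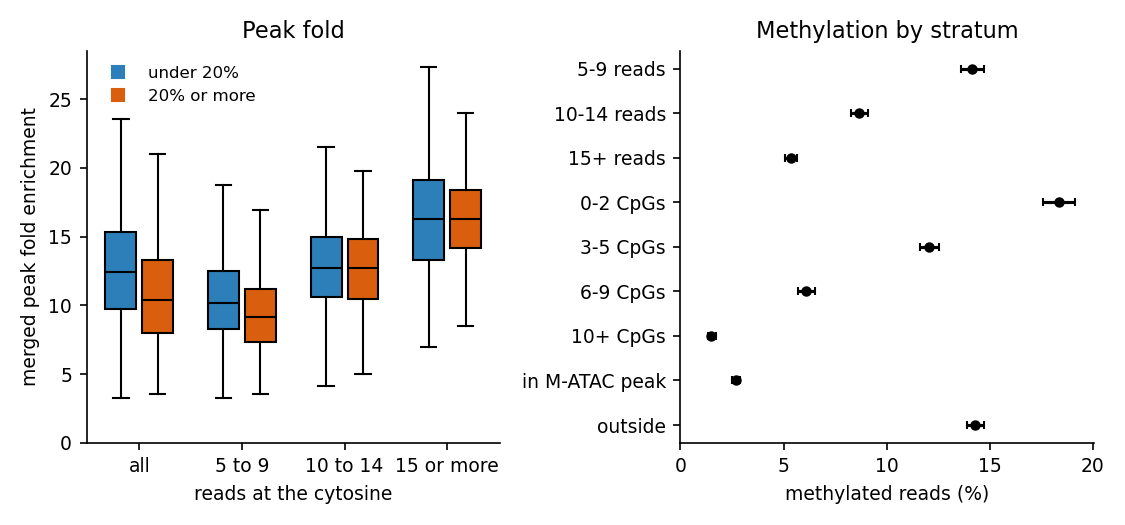
Left, merged CTCF M-ChIP peak fold (y axis) of members under 20% (blue) and at 20% or more (orange), over all members and by reads at the cytosine (x axis); boxes show the quartiles with the median, whiskers reach to 1.5 times their height and points beyond are not drawn. Right, share of methylated reads in percent (x axis, bars are 95% Wilson intervals) by reads, by CpGs in the window around the motif and by M-ATAC peak; the median folds are alike within 10 to 14 reads and within 15 or more, and methylation drops from 18.4% with 0 to 2 CpGs to 1.498% with 10 or more.

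Members in CpG-poor surroundings were more methylated. The rho of methylation with the number of CpGs in the window of 100 bp on either side of the motif's middle was -0.400. Mean methylation was 22.1% with 0 to 2 CpGs, 14.6% with 3 to 5, 8.26% with 6 to 9 and 1.72% with 10 or more. The median fold of low members exceeded that of the others in each of these bins, by 2.21, 2.07, 3.01 and 1.85.

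The sites at the ends of the range are given as examples. The 3 members of highest methylation by their lower bound were the step 1 CpG of the Mosmo motif, with 13 of 13 reads on the motif strand, and the following.
Intergenic near Ptafr, chr4:132599032-132599050, plus strand: CGtccagaagagggcactg
Intergenic near Gm14258, chr2:169123069-169123087, plus strand: CGgccagcagagggcatca
They were methylated in 15 of 15 and 14 of 14 reads, with lower bounds of 79.6% and 78.5%, and all 3 motifs were soft-masked with a unique 31 bp context. Near Ptafr, CTCF M-ChIP replicate 1 had a peak of fold 11.6 and replicate 2 had none. Neither CTCF M-ChIP-NC sample had a peak there, and the CTCF ChIP samples had folds of 12.4 and 15.4. Near Gm14258 the CTCF M-ChIP folds were 9.80 and 8.41 and the CTCF ChIP folds 8.16 and 18.1, while CTCF M-ChIP-NC had a peak in replicate 2 alone, of fold 6.80. The Mosmo motif had a peak in all 6 CTCF samples, with folds from 7.59 to 17.998.

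The high members in the strongest peaks were in 3 motifs, 1 of them the Iqce motif above.
Intron of Zmym2, chr14:56910511-56910529, plus strand: aCGccagaagagggcatca
Intergenic near Snora33, chr10:23715284-23715302, plus strand: CGgacataagagggcacca
The Iqce cytosine on the motif strand was methylated in 14 of 16 reads (87.5%), against 59.0% over both strands, under a merged fold of 18.3, the Zmym2 one in 14 of 17 (82.4%) under 16.7, and the Snora33 one in 14 of 15 (93.3%) under 15.8. Each of the 3 had a peak in all 6 CTCF samples, and none lay in a merged M-ATAC peak. The Zmym2 motif is a copy of the second recurring sequence.

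At the other end, the members with 0 methylated reads and the most coverage lay in peaks above the median fold of low members.
Intergenic near Gm25888, chr12:86796065-86796083, plus strand: CGtccactgggtggtgctg
Intergenic near Epm2aip1, chr9:111290066-111290084, plus strand: cCGccacacgggggcagca
Intergenic, 19 bp from a start of Rapgef1, chr2:29619683-29619701, plus strand, with the base before the motif: CGggccatcagggggcgctg
They had 0 of 52, 0 of 51 and 0 of 47 methylated reads, which allows up to 5.77%, 5.88% and 6.38%. Their merged folds were 20.02, 28.5 and 31.8, and all 6 CTCF samples had a peak at each. High folds follow in part from the choice by coverage, since reads and fold were related over all members (rho 0.610). The last motif alone lay in a merged M-ATAC peak.

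The peaks of single samples give the relation with replicates, including libraries that were never bisulfite converted. Each motif was put in a class by its pooled member reads, which gave 2380 low, 586 intermediate and 57 high motifs. CTCF ChIP replicate 1 had a peak at 98.3% of low, 94.7% of intermediate and 94.7% of high motifs, and replicate 2 at 99.6%, 98.8% and 98.2%. CTCF M-ChIP replicate 1 had 96.5%, 85.7% and 80.7%, and replicate 2 had 80.6%, 70.0% and 56.1%. CTCF M-ChIP-NC replicate 1 had 77.8%, 53.6% and 35.1%, and replicate 2 had 87.8%, 76.8% and 57.9%. Low motifs were thus most often under a peak in each of the 6 samples, and most methylated ones had a peak in CTCF ChIP. All motifs came from merged CTCF M-ChIP peaks, so the shares in CTCF M-ChIP follow in part from how they were chosen. How far that choice bears on CTCF ChIP, whose peaks were not used for it, was not tested.

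The fold under a peak kept this order for low motifs. In CTCF ChIP the median fold of low, intermediate and high motifs was 13.3, 10.6 and 9.34 in replicate 1 and 16.9, 14.2 and 13.1 in replicate 2. In CTCF M-ChIP it was 10.1, 8.34 and 7.07 in replicate 1 and 7.97, 7.29 and 6.63 in replicate 2. In CTCF M-ChIP-NC it was 8.08, 7.01 and 7.44 in replicate 1 and 8.76, 7.82 and 7.42 in replicate 2. Low motifs had the highest median in all 6 samples. The rho of motif methylation with fold ran from -0.069 to -0.164 over the 6 samples, each over its own motifs under a peak.

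No difference between groups passed a test. The low minus other difference in median fold was 1.88 and 0.736 in CTCF M-ChIP, 1.06 and 0.972 in CTCF M-ChIP-NC and 2.69 and 2.95 in CTCF ChIP. CTCF M-ChIP minus CTCF M-ChIP-NC was 0.288 (exact permutation test over samples, two-sided p = 1, adjusted p = 1). CTCF M-ChIP minus CTCF ChIP was -1.52, with no overlap of the samples (exact permutation p = 0.333, adjusted p = 0.833). These groups differ in the scale of fold: low motifs had medians of 10.1 and 7.97 in CTCF M-ChIP and 13.3 and 16.9 in CTCF ChIP. The rho of motif methylation with fold does not depend on that scale. It was -0.158 and -0.0699 in CTCF M-ChIP and -0.164 and -0.159 in CTCF ChIP. For the share of motifs under a peak, 94.1% and 78.1% in CTCF M-ChIP stood against 72.3% and 85.1% in CTCF M-ChIP-NC (exact permutation p = 0.667, adjusted p = 0.833) and against 97.5% and 99.4% in CTCF ChIP (exact permutation p = 0.333, adjusted p = 0.833). The other measured motifs had 91.3% and 79.0% in CTCF M-ChIP, 67.4% and 84.6% in CTCF M-ChIP-NC and 96.9% and 99.5% in CTCF ChIP. The shares by group are thus close to those of measured motifs in general. With 2 samples against 2 the smallest two-sided p is 0.333, so a difference could not have passed. The p-values were adjusted over 5 tests and measure only the spread between these samples.

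Reads bore on these samples as well. In motifs with 15 or more reads per member cytosine the low minus other difference in median fold was -0.980 and -0.730 in CTCF ChIP, whose reads were not used for methylation, with 514 low and 45 other motifs. It was 0.923 and 1.304 with 10 to under 15 reads, with 778 low and 136 other motifs, and 1.41 and 1.77 under 10 reads. Low motifs thus had the higher median below 15 reads and the lower one above, in both samples. Outside soft-masked sequence the difference over all reads was 2.46 and 2.61 in CTCF ChIP, and inside it 3.34 and 3.85.

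**Figure D5:**
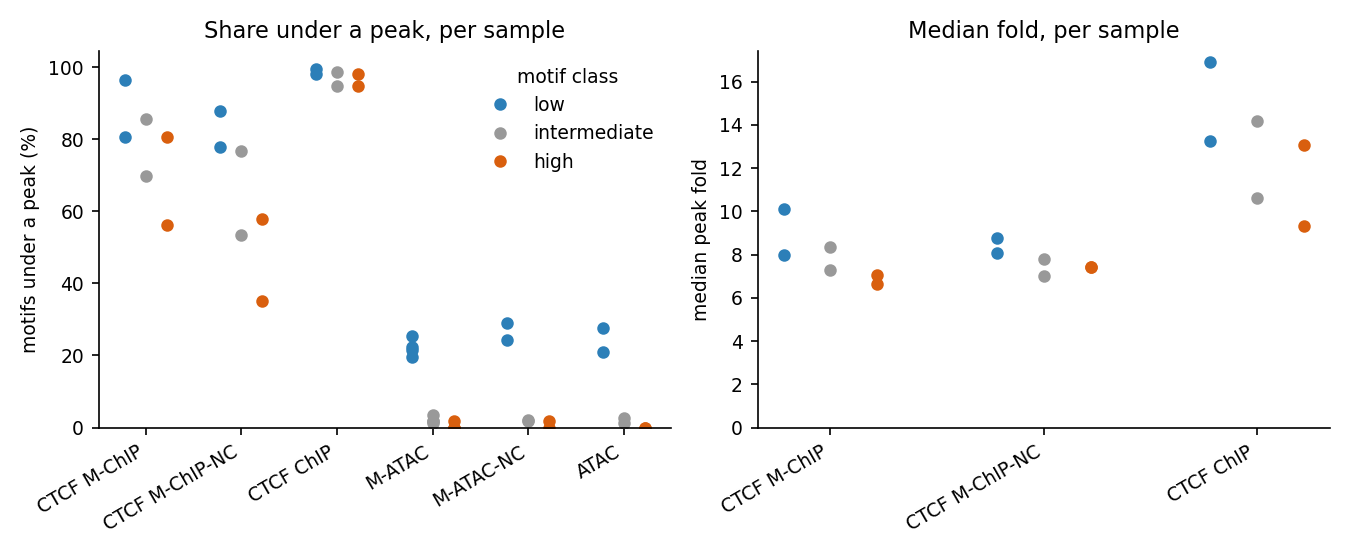
Left, percent of motifs under a peak of each sample (y axis) for motifs of low, intermediate and high methylation at positions 1 to 4, by group (x axis), 1 point per sample. Right, median peak fold (y axis) of the motifs under a peak in the CTCF groups; low motifs (blue) are highest in each of the 6 CTCF samples, and 0% to 3.41% of methylated motifs have a peak in the 8 accessibility samples.

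Methylated motifs were seldom in open chromatin. M-ATAC uses the same transposase on nuclei and marks open chromatin. Of the 3023 motifs 43.5% lay in a merged M-ATAC peak, against 30.8% of all motifs with a measured cytosine. The share was 51.9% (49.9 to 53.9) for low, 13.1% (10.6 to 16.1) for intermediate and 5.26% (1.81 to 14.4) for high motifs. Counted by cytosine, it was 51.6%, 13.7% and 5.43% for members. All measured motif cytosines had the same order, with 46.1%, 10.1% and 1.33%. In the 4 M-ATAC samples 22.4%, 25.5%, 21.6% and 19.5% of low motifs were under a peak, and 1.19% to 3.41% of intermediate ones. High motifs had a peak at 0 of 57 in 3 of these samples, which allows up to 5.26%, and at 1 of 57 in replicate 2. The unconverted M-ATAC-NC samples had 24.3% and 29.0% of low and at most 2.22% of intermediate motifs, and ATAC had 20.9% and 27.6% against at most 2.73%. Low and intermediate motifs did not overlap in any of the 3 groups. Over all classes M-ATAC had 15.6% to 20.4% and ATAC 16.7% and 22.3% (exact permutation p = 0.533, adjusted p = 0.833, smallest possible 0.133). The other measured motifs had 8.13% to 10.4% in M-ATAC and 8.12% and 10.9% in ATAC.

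Soft-masked motifs were rarely accessible. Of the 417, the 4 M-ATAC samples had a peak at 2.88% to 4.56%, against 17.4% to 23.1% of the other 2606. The CTCF ChIP samples had peaks at 94.96% and 98.6% of soft-masked and at 97.9% and 99.6% of the other motifs. Of the 57 high motifs 33 were soft-masked (57.9%), as were 31.6% of intermediate and 8.36% of low motifs.

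M-ATAC read many of the same cytosines. In 1790 members with 5 reads in both merged tables the mean was 2.97% in CTCF M-ChIP and 2.49% in M-ATAC, a difference of 0.474 points (SD over chromosomes 1.15), above 0 on 14 of 20 chromosomes. By reads the levels were 2.50% (2.30 to 2.71) and 1.91% (1.73 to 2.102), whose intervals did not overlap. M-ATAC called 1711 of them low, 79 intermediate and 0 high. The 91 that were intermediate in CTCF M-ChIP had a mean of 32.3% there and 17.2% in M-ATAC. These 91 were chosen by their CTCF M-ChIP value, so that gap is given as a description. The members in merged M-ATAC peaks were also less methylated in CTCF M-ChIP itself, with a mean of 3.19% over 2235 against 17.01% over the 2832 outside.

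Motifs near transcription starts were less methylated. Within 3 kb of a transcription start lay 42.9% of the 3023 motifs, against 34.5% of all motifs with a measured cytosine. The share was 47.1% (45.1 to 49.1) for low, 27.5% (24.0 to 31.2) for intermediate and 24.6% (15.2 to 37.1) for high motifs. Counted by cytosine, it was 46.6%, 27.9% and 26.1% for members, and 43.9%, 24.3% and 21.0% for all measured motif cytosines. Mean methylation was 7.08% in promoters and 13.8% outside. It was 8.69% in exons, 13.7% in introns and 9.33% between genes. The genes whose start lay within 3 kb had a median of 5.60 TPM (956 genes) for low, 3.86 TPM for intermediate and 0.26 TPM (11 genes) for high motifs. The intervals of these medians, 4.31 to 6.73, 1.54 to 8.38 and 0 to 85.2 TPM, overlapped.

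Gene lists of interest held few members, all of them low. Imprinted genes, at which CTCF binding is known to follow methylation, had 1 motif within 3 kb of a start, at Grb10, a growth inhibitor, with 0 of 24 methylated reads over 2 cytosines, which allows up to 12.5%. Pluripotency genes had 2 motifs, at Sall4 and Tbx3, with 0 of 16 reads methylated (up to 18.8%). The genes of CTCF and cohesin had 4, at Ctcf, Stag1 and Stag2, with 0 of 59 reads methylated over 7 cytosines (up to 5.08%). Genes of the methylation machinery had 0. None of these 12 cytosines reached 20%, and among all members within 3 kb of a start 12.6% did.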

How the data were processed

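The authors' notes name Bismark 0.18.1 for mapping CTCF M-ChIP, M-ATAC and control reads to mm10, SAMtools 1.3 for filtering and Trim Galore 0.4.4 for trimming; peaks were called with MACS2 per sample and on merged replicates. The deposited methylation tables hold methylated and unmethylated read counts and a percent per CpG cytosine; deposited peaks hold a fold ratio, a score and −log10 p and q values; deposited motif matches hold FIMO scores and p-values; the deposited RNA table holds TPM of merged replicates. The authors' merged tables carry no replicate error. The files show depth only as reads per cytosine.

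Motif matches were joined to cytosines, and all 43074 matches equalled the reference. Cytosines needed 5 reads. The summit nearest the motif gave the fold. Promoters were within 3 kb of a GENCODE start. Soft masking and 31 bp uniqueness were read from the GRCm38 reference. Samples were compared with exact permutation tests (scipy 1.17.1), adjusted over 5 tests. Statistics were tested on simulated data. Named sites were the 3 extremes by methylation bound, coverage at 0 methylated reads, peak fold over 80%, motif score at 20% or more and gap to C12, the best-scoring motif of each step, and members at 20% or more by listed genes, without chromosome 18. Members and lists were chosen with earlier results of these data known; the split by soft masking, read bins and overlapping matches were added after seeing the data. Alternatives are given in the closing section. KLF4 libraries were not used here.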

Additional observations from a re-analysis of the deposited data

Results flagged for a closer look

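Among 10 values compared over the 4 M-ATAC samples, 1 set a sample apart from the others: the share of high motifs under a peak was 1.75% in replicate 2 and 0 in the other 3. That share is 1 motif of 57. With 0 in the other 3, any motif under a peak would have set a sample apart. The usual rate of about 1 in 20 by chance does not hold for such a value, so nothing is read from it.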

How the results depend on the processing

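Of 135 alternative values for 16 results, 108 stayed within their limits, which were 1 SD over chromosomes, 1.5 times for counts, a counting interval, or the direction and side of the threshold for tests. With so few samples no test could cross its threshold, so for tests only a change of direction could count. A limit of 10 reads kept 1535 cytosines of 10 to 14 reads and 1179 of 15 or more. The mean was then 7.46%, the difference from C2 5.36 points, rho with fold -0.0395 and the low minus other fold 0.566. Of these cytosines 321 were intermediate and 23 high. With at least 1 read, over 6759 cytosines, the mean was 13.7% and 263 were high. Such counts follow in part from the number of cytosines kept. Within 5 to 9, 10 to 14 and 15 or more reads, added after seeing the data, the fold difference was 1.00, 0.0331 and -0.00097, and rho in the last 2 was -0.0182 and -0.0309. With strands pooled the mean was 13.1%. On the motif strand alone 423 were intermediate and 47 high, which fewer cytosines explain by construction. With peaks in both replicates 55 were high. Outside soft-masked sequence, also added, the mean was 8.36%, the differences 5.32 points from C2 and -1.18 from C12, and 43 were high. Promoters of 1 kb held 30.4%. The cause of the other changes was not tested.

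Leaving out 1 sample moved the share under a peak, CTCF M-ChIP minus CTCF M-ChIP-NC, between -0.629 and 15.4 points, below 0 without CTCF M-ChIP replicate 1; M-ATAC minus ATAC ran from -4.40 to 1.19, above 0 without ATAC replicate 2, and was 0.571 with peaks of -log10 q 5 or more. The fold difference, CTCF M-ChIP minus CTCF M-ChIP-NC, ran from -0.282 to 0.858, below 0 without CTCF M-ChIP replicate 1, and was -0.13 with 10 reads. Against CTCF ChIP the share ran from -20.4 to -4.40 and the fold difference from -2.09 to -0.948; with 10 reads they were -4.27 and -0.362. CTCF M-ChIP-NC is an unconverted aliquot by the study's methods, but the sources do not say that equal numbers mark the same preparation. A replicate block left M-ATAC minus ATAC at -0.165 points and the others at their values, with p of 0.5 or 1, so it changed no call. Even 0 of 14 reads allows 21.4%.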
